A study of Drosophila melanogaster with 42 samples.

Results

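Odorant-binding proteins (Obps) are encoded in *Drosophila melanogaster* by genes named Obp followed by their cytological number. The probesets that name a single gene on the Drosophila 2.0 array covered 47 of these genes with 50 probesets, out of 11982 genes and 13647 single-gene probesets in all. The members were picked by gene symbol alone, so that no measured value entered the choice. The reference annotation lists 51 Obp genes, and 4 of them (Obp50b, Obp50c, Obp57d and Obp83a) were not named alone by any probeset. The remaining family member *lush*, which is not named by the Obp pattern, is given with the other chemosensory genes.

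Obps are small secreted proteins with conserved cysteines that bind hydrophobic ligands. In the antenna and the taste hairs they are made by support cells and released in large amounts into the lymph that bathes the receptor neurons, where members such as *lush* carry or shape the response to odorants. Many members are also made outside the sense organs, in fat body, glia, gut and the reproductive tract, and several are seminal fluid proteins that males pass to females.

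RNA from whole bodies of at least 75 females per sample was hybridized to 42 arrays, 3 for each of 14 groups. Dietary restriction (DR) was a sucrose and yeast extract food of low calorie content, and the control food, labelled normal, was a more concentrated food that the methods call high calorie. DR was studied in Canton-S flies against Canton-S controls and in yw/w1118 flies against yw/w1118 controls, each at day 40 and day 10. The yw/w1118 flies carried the neuronal ELAV-GeneSwitch driver and the dSir2 EP2300 element. The same flies fed the inducer RU486 formed the dSir2 group, and those fed diluent served as controls both for it and for yw/w1118 DR. The DN-Dmp53 group (labelled p53 knockdown) expressed a dominant negative form of Dmp53, the fly p53, in adult neurons of the yw/w1118 background after RU486, and had diluent-fed controls of its own. The drug and the transgene were given together, so their effects cannot be told apart, and the driver limits both transgenes to neurons. In whole bodies *Sirt1*, the dSir2 gene, read 11.8, 11.63 and 11.65 in dSir2 flies against 11.99, 11.71 and 12.03 in controls at day 10 (change -0.22, limma adjusted p = 0.232), and p53 differed by 0.23 between DN-Dmp53 flies and their controls (adjusted p = 0.223). Neither level checked the label, since a change limited to neurons need not show in a whole-body sample.

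Levels below are the deposited log2 values. Of all probesets, 36.9 to 41.2% lay on each array at the lowest value, 2.11, which is called the floor here. The yolk protein gene *Yp1* was at 15.78 to 15.94 on all 42 arrays, as labelled for females. Whole-body RNA does not separate fewer cells of a type from less RNA per cell, and this holds for every change given here.

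Of the 47 Obp genes, 7 were at the floor on every array (Obp22a, Obp46a, Obp50a, Obp50e, Obp56c, Obp56i and Obp57e), and another 13 never rose more than 1 log2 unit above it. Among these weak genes were Obp59a, which functions in humidity sensing, and Obp8a, one of the seminal fluid Obps, whose level lay between 2.43 and 2.86 on all arrays. The remaining 27 genes reached more than 1 unit above the floor on at least 1 array, and 25 of the 47 genes were above the floor on every array. Obp99c, Obp56d and Obp19d had the highest readings, up to 14.48, 14.41 and 13.1, although levels of different probesets are not comparable as amounts of RNA. Obp19c had 2 probesets that disagreed, since one ranged from 8.35 to 10.62 and the other was at the floor on 38 arrays, and the first is used here.

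**Figure D1:**
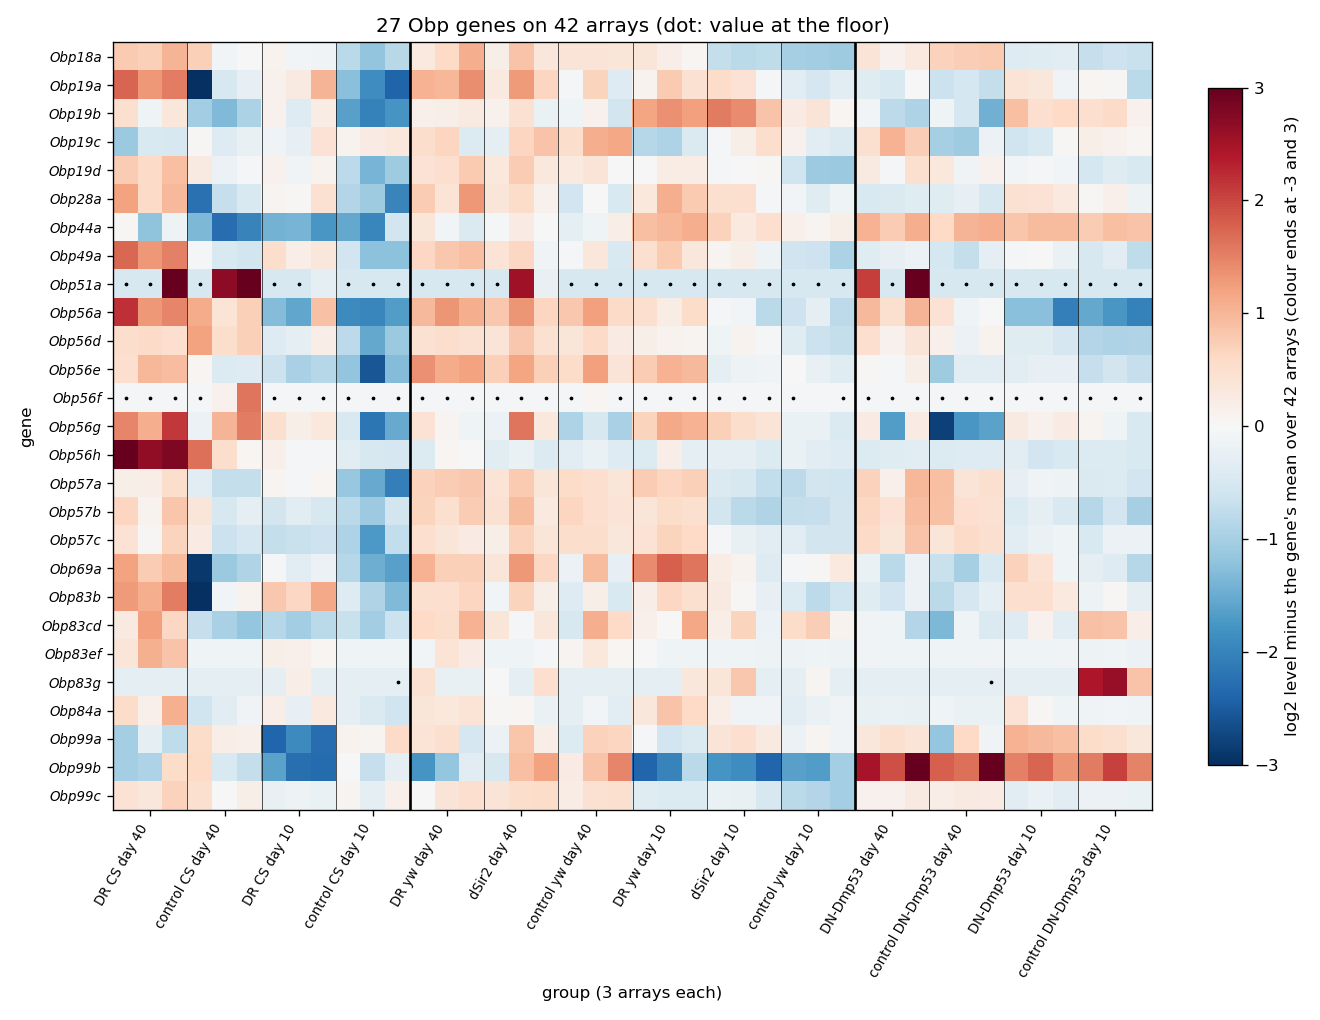
Level of the 27 Obp genes that reached more than 1 log2 unit above the floor, as the difference from each gene's mean over 42 arrays; each column is 1 array, arrays are grouped by condition and black dots mark values at the floor. Obp51a is above the floor on only 8 arrays, and Obp99b is at 7.37 or more on all arrays of the DN-Dmp53 flies and their controls.

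Some arrays stood apart in a way that touches the Obp genes. Of 24 genes made in male accessory glands, ejaculatory duct and bulb or testis, 23 were not above the floor everywhere. On 34 arrays 0 to 3 of these 23 genes were above the floor, and on the other 8 arrays 19 to 23 were. The 8 arrays were DR Canton-S day 40 replicate 3, Canton-S control day 40 replicates 2 and 3, DR Canton-S day 10 replicate 3, dSir2 day 40 replicates 2 and 3, and DN-Dmp53 day 40 replicates 1 and 3. The log2 of the list's summed level ranged from 6.97 to 10.87 in DR Canton-S and from 6.98 to 11.97 in Canton-S controls at day 40, and from 6.93 to 9.84 in DR Canton-S and from 7.0 to 7.06 in Canton-S controls at day 10. It ranged from 6.94 to 11.09 in dSir2 flies and from 7.02 to 7.04 in controls at day 40, and from 6.98 to 11.82 in DN-Dmp53 flies and from 7.04 to 7.48 in their controls at day 40. Defining accessory gland genes such as *Acp53Ea* were at the floor on all of the other 34 arrays.

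Obp51a, a seminal fluid Obp of male accessory glands, followed these arrays exactly. It was at 2.33 to 5.87 on the 8 arrays and at the floor on all 34 others. Obp56f, from the same class, was at 2.29 and 3.76 on Canton-S control day 40 replicates 2 and 3 and at no more than 2.21 elsewhere. Obp22a and Obp56i, also seminal fluid Obps, were at the floor on all 42 arrays. Obp56g, which is needed in males for the mating plug and is also made in taste organs, ranged from 8.17 to 10.04 on the 8 arrays and from 5.12 to 9.4 on the others, so that these ranges overlap. Those ranges pool all groups. In DN-Dmp53 flies at day 40 Obp56g read 8.18, 6.25 and 8.17, and only the middle replicate lacked male transcripts. In Canton-S controls at day 40 it was at 8.96 and 9.46 on the arrays with male transcripts and at 7.75 on the other. In dSir2 flies at day 40 it was at 9.53 and 8.24 against 7.75, and in DR Canton-S flies at day 40 at 10.04 against 9.4 and 9.03. In DR Canton-S flies at day 10 it was not higher, at 8.24 against 8.41 and 8.1. Counts of called genes that include these arrays are given with and without them, and the part of male RNA in those results was not tested.

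**Figure D2:**
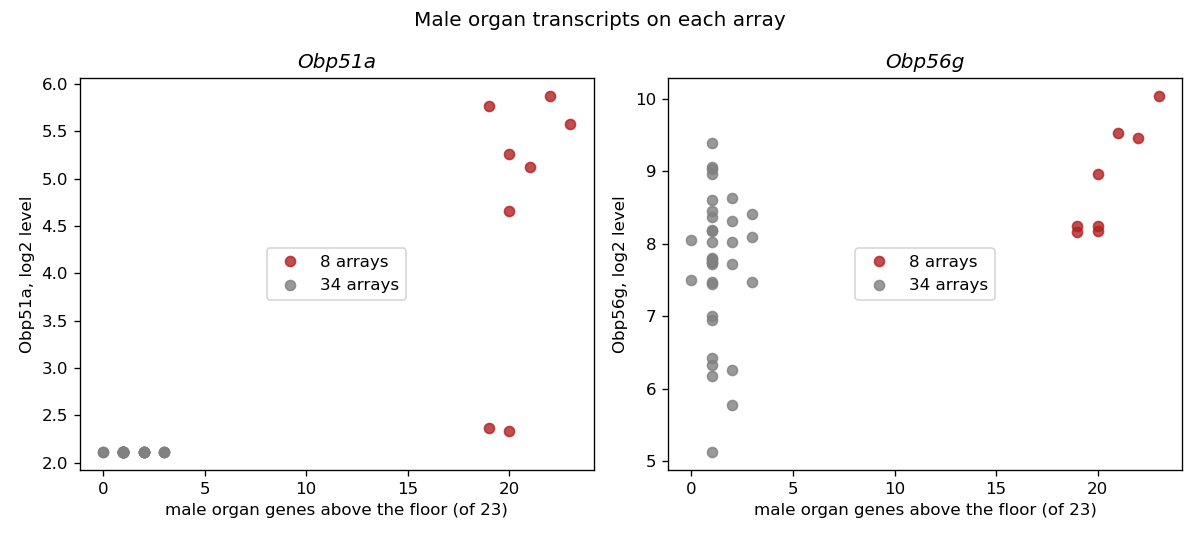
Obp51a (left) and Obp56g (right), log2 level, against the number of male organ genes above the floor, of 23; each point is 1 array, red for the 8 arrays with 19 to 23 such genes and grey for the 34 others. Obp51a is above the floor on the red points only, whereas Obp56g is above the floor on all points.

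A further array, Canton-S control day 40 replicate 1, was low in several Obps of the antenna. Both other replicates of its group were among the 8 arrays with male transcripts and replicate 1 was not. The part of this in its low readings was not tested. Obp83b, an Obp of antennal hairs known as OS-E, was at 5.36 on it, against 8.65 and 8.85 on the other replicates. Obp19a was at 3.28 against 6.85 and 7.08, Obp28a at 4.99 against 6.55 and 6.79, and Obp69a at 4.18 against 5.98 and 6.19. Of other genes expressed in the antenna, *a10* was at 5.21 against 7.16 and 7.3 and *lush* at 3.5 against 4.37 and 4.51. *Antdh* was at 4.92 against 5.62 and 5.8. *a5* was at 3.09 against 3.08 and 3.08, and *Snmp1* at 2.92 against 2.67 and 2.82, so that these were not low on that array. The eye arrestin *Arr1* was at 11.3, 11.46 and 11.39. Obp19d, Obp56d and Obp57a were slightly higher on that array than on the other 2, so that its lower readings were limited to part of the family.

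At day 10 in Canton-S flies, Obp genes of the antenna, of taste organs and of wider expression were among those that rose under DR. Of 32 Obp genes tested, 11 rose and 2 fell by more than 1.5-fold with a limma adjusted p under 0.05. The share that rose was 34.4%, against 17.9% of all tested genes, and the share that fell was 6.25%, against 17.7% of all tested genes. The median change of the tested members was 0.41, against 0 over all probesets tested. Of the genes that rose, Obp19a had the largest change (2.31 ± 0.40, SE; adjusted p = 0.00852), followed by Obp19b (1.78 ± 0.21; adjusted p = 0.00259) and Obp83b (1.72 ± 0.29; adjusted p = 0.00742).

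Among the antennal members, Obp83b was at 9.54, 9.37 and 9.88 in DR Canton-S flies against 8.36, 7.83 and 7.43 in Canton-S controls. Obp69a, which in flies has been tied to the pheromone cVA and social responsiveness, was at 7.02, 6.77 and 6.91 under DR against 6.22, 5.63 and 5.45 in controls. Both sets were fully separated, with changes of 1.72 for Obp83b and 1.13 ± 0.23 for Obp69a (adjusted p = 0.0135). Such separation, in either direction, held for 61.1% of all probesets tested in this comparison. Obp28a was at 7.33, 7.27 and 7.7 in DR Canton-S flies against 6.35, 6.18 and 5.25 in controls, a change of 1.51 ± 0.34 (adjusted p = 0.0192).

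Among the taste members, Obp49a and Obp19b rose. Obp49a, which acts in taste hairs when a bitter compound suppresses the response to sugar, read 9.18, 8.84 and 8.99 in DR Canton-S flies against 8.07, 7.41 and 7.41 in controls (1.37 ± 0.23; adjusted p = 0.00706). Obp19b, which is needed for the taste of some amino acids, read 5.31, 4.79 and 5.39 under DR against 3.56, 3.15 and 3.42 in controls. Every DR array lay above every control array for both genes. Obp57a was at 10.8, 10.68 and 10.78 against 9.59, 9.22 and 8.68 (1.59 ± 0.25; adjusted p = 0.00609), and its neighbours Obp57b and Obp57c were not called.

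Among the widely expressed members, Obp19d read 12.33, 12.09 and 12.31 in DR Canton-S flies against 11.42, 10.8 and 11.14 in controls, and Obp18a and Obp56d rose by 0.91 and 0.98. Obp56g was at 8.41, 8.1 and 8.24 under DR against 7.47, 5.77 and 6.42 in controls (1.7 ± 0.47; adjusted p = 0.0363). DR replicate 3 was one of the 8 with male transcripts but did not exceed the other DR arrays. Without that array 8 genes rose and 2 fell, and Obp28a, Obp56d and Obp56g were no longer called (adjusted p = 0.0558, 0.0671 and 0.0857).

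Obp99a and Obp99b went down in DR Canton-S flies. Obp99a was at 9.24, 9.71 and 9.34 in DR Canton-S flies against 11.72, 11.71 and 12.19 in controls, a fall of 5.45-fold (-2.45 ± 0.20; adjusted p = 0.00113). Obp99b, known as turn on sex-specific for its higher expression in male heads, was at 4.43, 3.77 and 3.73 under DR against 6.06, 5.34 and 5.76 in controls (-1.75 ± 0.29; adjusted p = 0.00702). Both were fully separated between the groups, and both were still called when any of the 6 arrays was left out. Their neighbour Obp99c was at 13.57, 13.64 and 13.6 against 13.88, 13.52 and 13.96 and was not called.

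In yw/w1118 flies at day 10, DR raised 17 of the 32 tested Obp genes and lowered none. That is 53.1% of the members tested, against 18.3% of all tested genes that rose, and 0 members fell, against 14.9% of all tested genes. The median change of the members was 0.74, against 0 over all probesets. All 11 genes that rose in Canton-S flies at day 10 were among the 17, or 64.7% of the yw/w1118 list, and these sets of arrays share no controls. The other 6 were Obp44a, Obp56a, Obp56e, Obp57b, Obp57c and Obp84a. How many of all tested genes rose in both backgrounds was not counted. The shared rise is therefore not particular to the Obp genes as far as shown.

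Obp69a showed the largest change in this background, reading 8.5, 8.87 and 8.7 in DR yw/w1118 flies against 7.05, 7.11 and 7.38 in controls (1.51 ± 0.14; adjusted p = 0.00164). Obp49a was at 9.14, 9.44 and 8.99 under DR against 8.05, 8.03 and 7.69 in controls (1.27 ± 0.16; adjusted p = 0.00358). Obp19b was at 6.37, 6.54 and 6.42 against 5.43, 5.56 and 5.24 (1.03 ± 0.10; adjusted p = 0.00175). None of these groups overlapped, as was so for 62.5% of all probesets tested in this comparison. The antennal Obp83b and Obp84a rose by 1.03 and 0.80, and Obp28a was at 7.56, 8.33 and 8.02 in DR yw/w1118 flies against 7.15, 6.88 and 7.11 in controls.

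The 3 measured genes of the Obp57 cluster with detectable RNA rose together in DR yw/w1118 flies. Obp57a was at 11.49, 11.37 and 11.45 under DR against 9.95, 10.17 and 10.13 in controls (1.35 ± 0.07; adjusted p = 0.00073). Obp57b was at 8.75, 8.92 and 8.86 against 7.65, 7.69 and 7.83, and Obp57c was at 10.93, 11.15 and 11.08 against 10.15, 9.93 and 9.94. The changes of 1.12 for Obp57b and 1.05 for Obp57c had standard errors of 0.07 and 0.09. Leaving out any single array kept the calls of all 3.

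In the Obp56 cluster, Obp56g was at 8.6, 9.06 and 8.97 in DR yw/w1118 flies against 7.72, 7.72 and 7.5 in controls (1.23 ± 0.15; adjusted p = 0.00302), and no array of this comparison was among the 8 with male transcripts. Obp56a, Obp56d and Obp56e rose by 1.0, 0.69 and 1.11. Obp19d was at 12.19, 12.41 and 12.42 under DR against 11.6, 11.1 and 11.08 in controls. Obp44a, which in glia binds fatty acids, rose by 0.86 ± 0.06 (adjusted p = 0.00112), and Obp18a rose by 1.25 ± 0.08 (adjusted p = 0.000957). Of the 17 calls, 15 held when each array was left out in turn, and Obp19a and Obp28a did not.

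**Figure D3:**
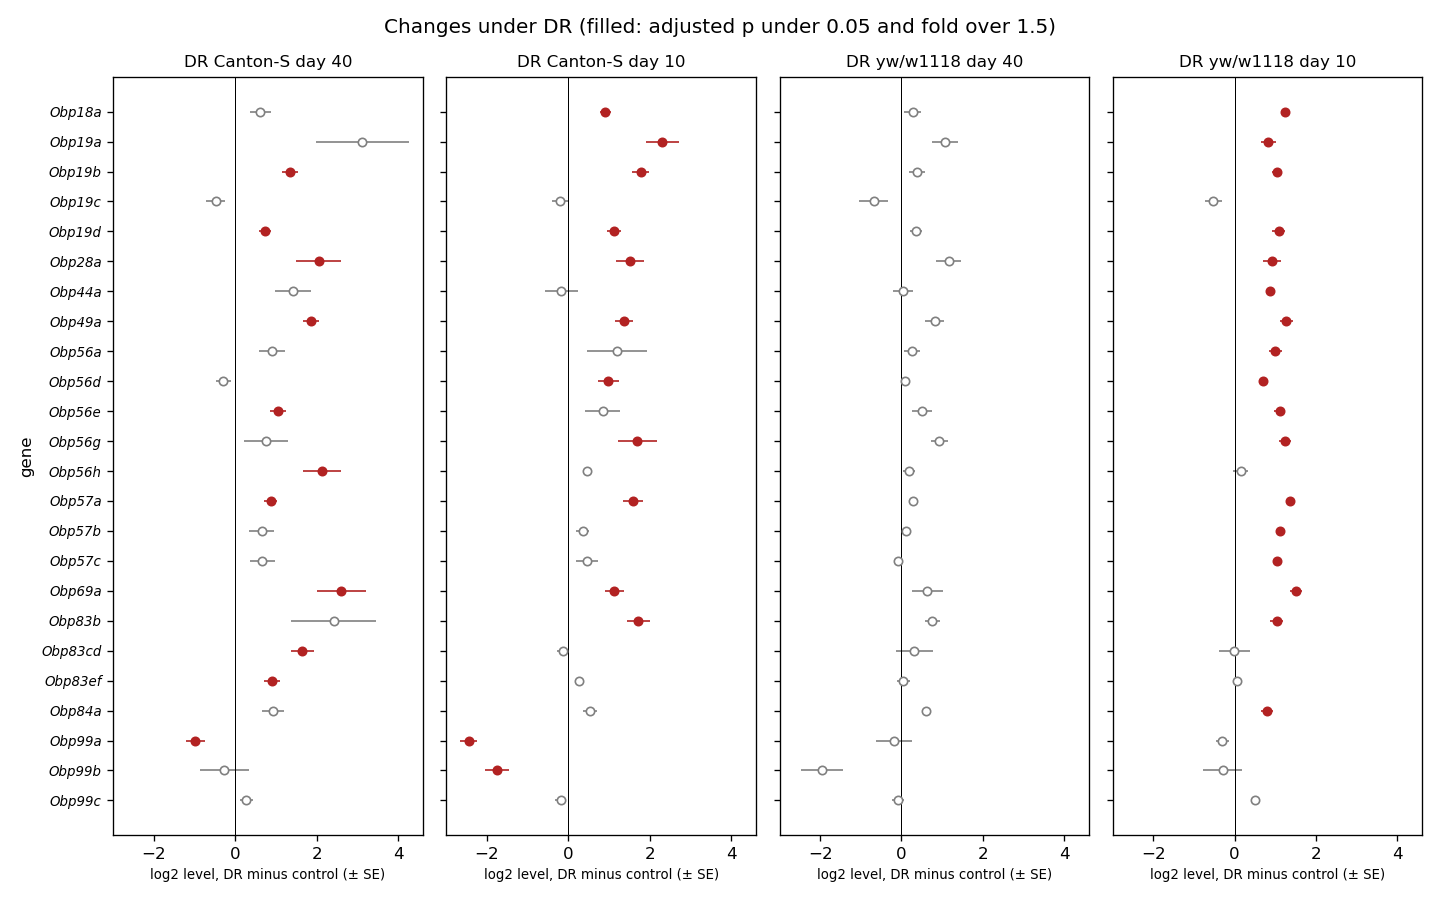
Change under DR (log2 level, DR minus control, ± SE of the limma fit, n = 3 arrays per group) of 24 Obp genes in 4 comparisons; filled red points were called. Day 10 holds 11 higher and 2 lower genes in Canton-S and 17 higher in yw/w1118, and no gene is filled in yw/w1118 at day 40.

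Genes of other head and body tissues moved with these Obps. Of the 21 other chemosensory proteins listed, 9 rose and 0 fell in DR Canton-S flies at day 10, and 7 rose and 0 fell in DR yw/w1118 flies, out of 15 tested in each. *CheA87a*, *CheA75a* and *CheA7a*, from a family expressed in taste hairs, rose by 1.57, 1.44 and 1.43 in Canton-S and by 1.53, 1.27 and 1.36 in yw/w1118. *lush* was not called in either (0.84, adjusted p = 0.107 in Canton-S; 0.31, adjusted p = 0.0155 but under the fold limit in yw/w1118). The odorant, gustatory and ionotropic receptor lists held 57, 56 and 53 genes, of which 27, 31 and 29 were at the floor on every array. Only 8, 6 and 11 of them were tested in Canton-S and 7, 5 and 8 in yw/w1118. None of these was called under DR at day 10. The other receptors were left out as absent, so no change in them could be read.

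All 6 photoreceptor genes rose under DR at day 10 in both backgrounds, with medians of 1.66 in Canton-S and 1.16 in yw/w1118. Of 12 neuronal genes 8 rose and 1 fell in Canton-S and 9 rose in yw/w1118, and of 9 muscle genes 8 and 9 rose. The log2 of the summed photoreceptor level was 14.67 to 14.91 in DR Canton-S against 13.24 to 13.48 in controls, and 14.25 to 14.34 in DR yw/w1118 against 13.12 to 13.17 in controls. The summed level of the 12 ovary genes was 15.68 to 15.82 in DR Canton-S against 16.3 to 16.41 in controls, and 15.99 to 16.05 in DR yw/w1118 against 16.37 to 16.48 in controls, with 5 genes lower in each. Of 8 fat body genes 5 rose and 1 fell in each background, with medians of 1.02 in Canton-S and 0.81 in yw/w1118, and 3 of 4 spermathecal genes rose in each, with medians of 2.76 and 2.98. Of the haemocyte genes 0 of 4 tested rose in Canton-S and 4 of 5 in yw/w1118. The part of these shifts in the Obp changes was not tested.

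At day 40, 10 of 32 tested Obp genes rose and 1 fell under DR in Canton-S flies. The shares were 31.2% higher and 3.12% lower, against 13.6% and 13% of all tested genes. Of the 10 that rose, 6 had also risen in Canton-S at day 10, which is 60% of the day 40 list and 54.5% of the day 10 list. The same overlap over all tested genes was not counted.

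Obp49a was at 10.36, 9.95 and 10.17 in DR Canton-S flies against 8.62, 8.19 and 8.09 in controls at day 40 (1.86 ± 0.19; adjusted p = 0.00483). Obp19b was at 5.67, 5.05 and 5.51 under DR against 4.13, 3.86 and 4.23 in controls (1.34 ± 0.20; adjusted p = 0.0106). These genes were fully separated, as were 51.3% of all probesets tested in this comparison. Of the 11 calls only theirs held when each array was left out in turn. Obp57a was at 10.9, 10.92 and 11.25 against 10.42, 10.02 and 10.02, and Obp19d was at 12.96, 12.76 and 13.1 against 12.46, 12.01 and 12.13.

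Obp56h, which in males affects mating behaviour, was high in 1 group only. It read 5.85, 5.36 and 5.52 in DR Canton-S flies against 4.36, 3.23 and 2.76 in controls at day 40 (2.13 ± 0.46; adjusted p = 0.026), and lay at no more than 2.9 on the arrays of all other groups. Obp83cd read 3.82, 4.79 and 4.19 under DR against 2.87, 2.58 and 2.4 in controls, and Obp83ef read 2.68, 3.37 and 3.17 against 2.18, 2.17 and 2.17. Both are neighbours in the Obp83 cluster, and Obp83ef was near the floor on all 3 control arrays. Obp56e rose by 1.05 ± 0.20 (adjusted p = 0.0197).

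Canton-S control replicate 1 was the lowest array of this comparison for several antennal members. Obp69a was at 8.29, 7.85 and 8.04 in DR Canton-S flies at day 40 against 4.18, 5.98 and 6.19 in controls. Its change was 2.61 ± 0.60 (adjusted p = 0.0307), and 1.97 (adjusted p = 0.0102) without Canton-S control day 40 replicate 1. Obp28a was at 8.44, 7.81 and 8.22 against 4.99, 6.55 and 6.79 (2.05 ± 0.55; adjusted p = 0.0453). Obp69a and Obp28a each kept their call in only 1 of the 6 fits with an array left out. Obp19a and Obp83b had changes of 3.12 and 2.42 with no overlap between groups and were not called (adjusted p = 0.0991 and 0.146).

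The count at day 40 in Canton-S depended on the arrays used. For the fits with arrays left out, the share of all genes called was not counted. It was 12 without control replicate 1, 2 without control replicate 2 or 3, 6 without DR replicate 1 and 4 without DR replicate 3. Without the arrays that carried male transcripts, which leaves DR replicates 1 and 2 and control replicate 1, it was 0, and the lone control array is assumed to vary like the other group. Obp51a itself read 2.11, 2.11 and 5.58 under DR against 2.11, 5.26 and 5.87 in controls, and was not called. Photoreceptor genes (6 of 6), muscle genes (8 of 9) and other chemosensory genes (8 of 15 tested, with *a5* at 1.7) also rose in this comparison. Of 12 neuronal genes 3 rose and 1 fell, and of 12 ovary genes 1 rose and 7 fell. Of 8 fat body genes 3 rose, as did 4 of 4 spermathecal and 3 of 4 tested haemocyte genes.

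Obp99a was again lower under DR in Canton-S at day 40, at 10.61, 11.35 and 10.87 against 12.18, 11.82 and 11.78 in controls (-0.98 ± 0.23; adjusted p = 0.0332). Obp99b overlapped between the groups at 5.03, 5.12 and 6.59 against 6.63, 5.59 and 5.32.

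In yw/w1118 flies at day 40, limma called 0 of 33 tested members, against 0.0723% of all tested genes, while 8 members had an unadjusted p under 0.05 and the methods' t-test called 1 before adjustment and 0 after it. The share of all genes with an unadjusted p under 0.05 was not counted, here or in the comparisons below. Several of the genes that had risen at day 10 were higher without passing the test. Others were not, such as Obp44a with a mean of 10.58 under DR against 10.55 in controls. For 5 of these genes the DR change was smaller than at day 10 by a direct test, given below. Obp49a was at 9.27, 9.46 and 9.54 in DR yw/w1118 flies against 8.61, 9.0 and 8.2 in controls (0.82 ± 0.23; adjusted p = 0.17), and Obp28a was at 8.01, 7.64 and 8.54 against 6.66, 7.26 and 6.79 (1.16 ± 0.30; adjusted p = 0.155). Obp99b was at 4.28, 4.88 and 5.7 under DR against 6.28, 6.9 and 7.51 in controls (-1.95 ± 0.51; adjusted p = 0.159). These groups did not overlap. Over all probesets tested, 26.5% had groups that did not overlap, against 11 of the 33 members, each read from 1 probeset.

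The difference between backgrounds was tested directly. At day 10 the DR change in Canton-S minus that in yw/w1118 was below 0 with a call for 3 of 35 members (8.57%, against 1.85% of all tested genes), namely Obp99a, Obp57b and Obp99c, and above 0 for none (against 1.73%). Obp99a showed -2.15 ± 0.26 (adjusted p = 0.00431). In yw/w1118 it had been at 11.56, 11.05 and 11.18 under DR against 11.44, 11.71 and 11.52 in controls, a range that overlaps. Its difference was called with each of the 12 arrays left out in turn. Obp99c and Obp57b were called in 3 and 2 of those 12 fits. The count was 1 without yw/w1118 control replicate 2 or 3, any DR yw/w1118 replicate, DR Canton-S replicate 1 or 3 or Canton-S control replicate 1, and also without the array of this comparison that carried male transcripts.

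At day 40 no difference between backgrounds was called in 36 tested members, against 4.47% of all tested genes, with 8 members at an unadjusted p under 0.05. Obp56h came nearest (1.94 ± 0.50; adjusted p = 0.0619), with Obp49a at 1.04 ± 0.31 (adjusted p = 0.0892). Without Canton-S control replicate 1 the count was 2, without DR Canton-S replicate 1 it was 1, and without the arrays with male transcripts it was 2.

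**Figure D4:**
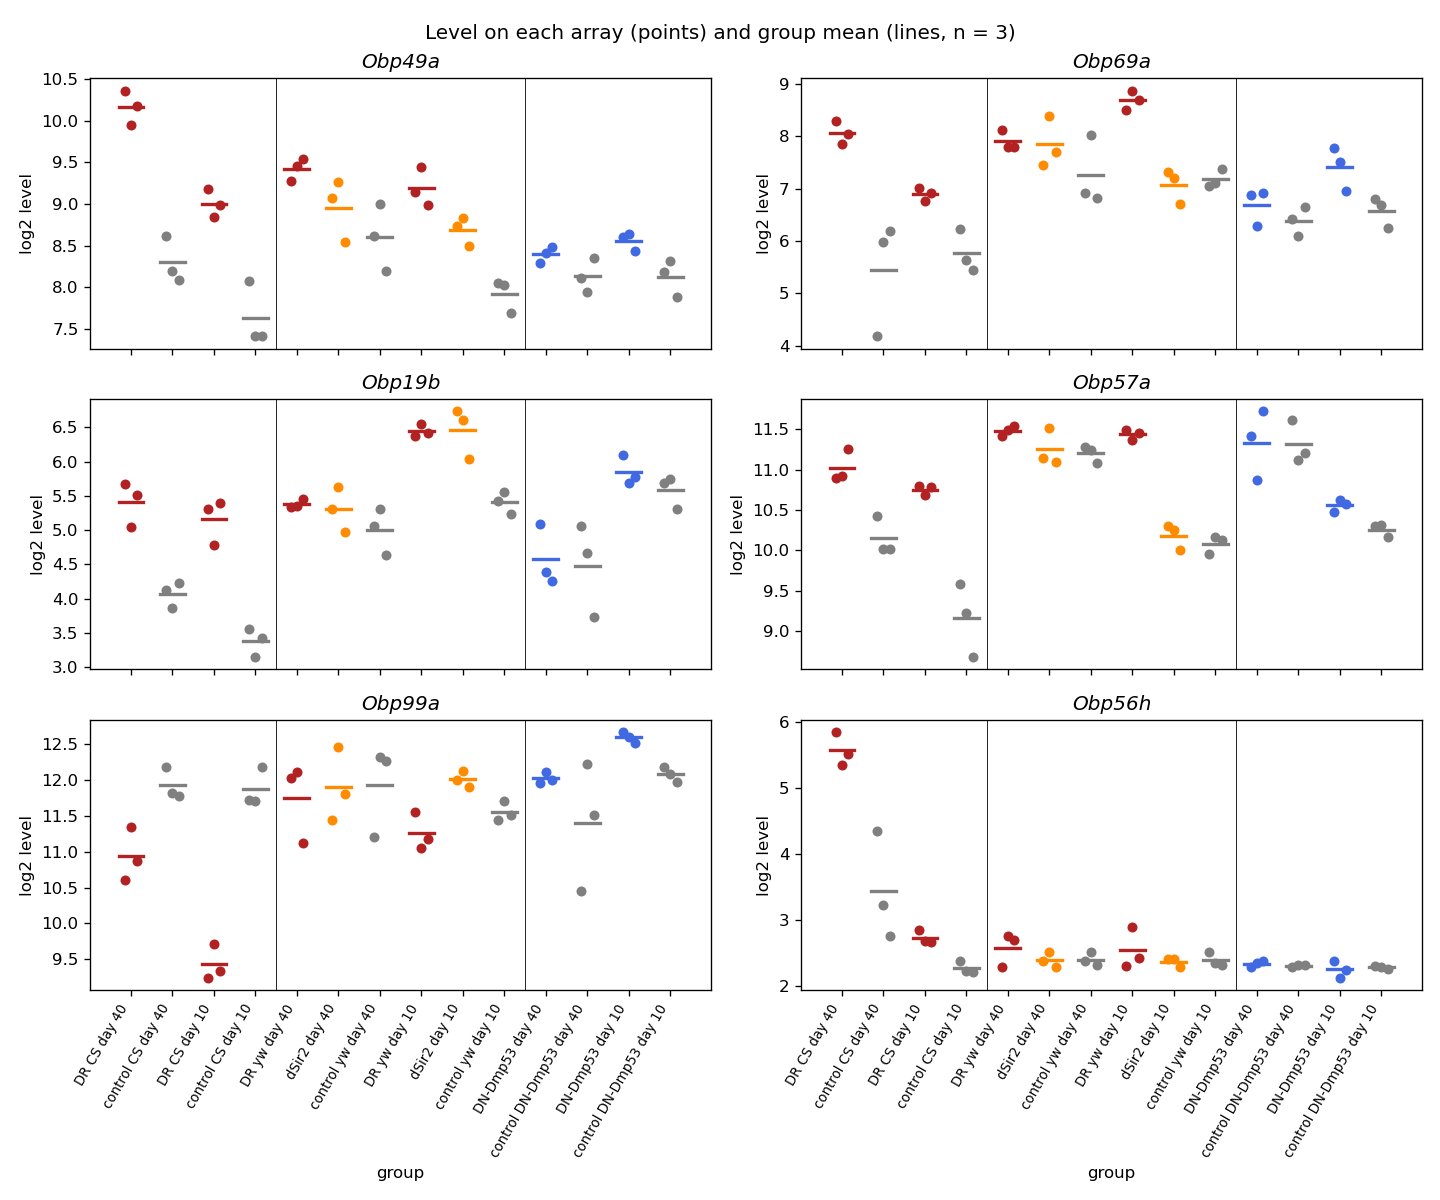
Log2 level of 6 Obp genes on each of 42 arrays (points) with the group mean (line, n = 3); DR groups are red, dSir2 orange, DN-Dmp53 blue and controls grey, and thin lines divide Canton-S, yw/w1118 and the DN-Dmp53 line. Obp99a is lowest in DR Canton-S flies at day 10 (9.24 to 9.71), Obp56h is at 5.36 or more only in DR Canton-S flies at day 40, and Obp57a in the yw/w1118 controls is at 11.08 to 11.28 at day 40 and at 9.95 to 10.17 at day 10.

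With dSir2 induction at day 10, 5 of 31 tested Obp genes rose and none fell. The shares were 16.1% higher, against 6.63% of all tested genes, and 0 lower, against 5.69%. Obp19b was at 6.73, 6.6 and 6.03 in dSir2 flies against 5.43, 5.56 and 5.24 in controls (1.04 ± 0.22; adjusted p = 0.033). Obp19d was at 12.16, 12.18 and 12.22 against 11.6, 11.1 and 11.08 (0.93 ± 0.16; adjusted p = 0.0207). Neither group overlapped, as was so for 41.3% of all probesets tested in this comparison. These controls are the same arrays as those of yw/w1118 DR.

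Obp56g was at 8.64, 8.45 and 8.31 in dSir2 flies against 7.72, 7.72 and 7.5 in controls (0.82 ± 0.11; adjusted p = 0.0127). Obp49a was at 8.73, 8.83 and 8.49 against 8.05, 8.03 and 7.69 (0.76 ± 0.15; adjusted p = 0.0265), and Obp99c rose by 0.60 ± 0.10 (adjusted p = 0.0206). The antennal Obp69a overlapped between the groups, at 7.32, 7.2 and 6.71 against 7.05, 7.11 and 7.38, and Obp57a was at 10.3, 10.25 and 10.0 against 9.95, 10.17 and 10.13, which also overlap. Of the 5 calls only that of Obp56g held with each array left out in turn. The count was 1 without dSir2 replicate 1 or 2 or control replicate 2 or 3, and 8 without dSir2 replicate 3.

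Photoreceptor and muscle genes also rose with dSir2 at day 10 (5 of 6 and 6 of 9), and the summed ovary level was 15.91 to 16.05 in dSir2 flies against 16.37 to 16.48 in controls. Of 8 fat body genes 4 rose and 1 fell. Only 1 of 15 other chemosensory genes tested rose, and 0 of 12 neuronal, 0 of 4 spermathecal and 0 of 4 tested haemocyte genes were called. At day 40 limma called 0 of 33 members for dSir2, against 0% of all tested genes, with 3 at an unadjusted p under 0.05 and 0 by the methods' t-test. Obp56g read 7.75, 9.53 and 8.24 in dSir2 flies against 7.0, 7.44 and 6.95 in controls, and its highest reading was on an array with male transcripts. The count stayed 0 without those arrays. The difference of the dSir2 change between ages was called for 0 of 35 members, against 4.36% of all tested genes, with 3 at an unadjusted p under 0.05, and for 1 without dSir2 day 10 replicate 3.

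With DN-Dmp53 at day 10, none of 29 tested Obp genes was called by limma, against 2.3% of all tested genes, with 13 at an unadjusted p under 0.05 and 0 by the methods' t-test. Their changes ranged from -2.24 to 0.83. The groups did not overlap for 12 members that were higher and 4 that were lower, against 21.8% of all tested probesets without overlap. A total of 5 had an adjusted p under 0.05 with a change below the fold limit. The shares of all genes at that limit, or at an unadjusted p under 0.05, were not counted. Obp18a was at 9.73, 9.76 and 9.77 in DN-Dmp53 flies against 9.43, 9.49 and 9.44 in controls (0.30 ± 0.02; adjusted p = 0.0114). Obp56d, Obp99a, Obp56e and Obp19d changed by 0.49, 0.51, 0.38 and 0.37.

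Obp83g was above 3.21 only in the DN-Dmp53 controls at day 10. It was at 2.12 on all 3 arrays of DN-Dmp53 flies at day 10 against 4.82, 5.01 and 3.26 in their controls (-2.24 ± 0.52; adjusted p = 0.12). At day 40 DN-Dmp53 flies were at 2.12 on all 3 arrays against 2.12, 2.12 and 2.11 in controls. Without DN-Dmp53 replicate 3 or control replicate 3, the day 10 count was 1, for a lower gene.

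Obp99b was high throughout the DN-Dmp53 line, at 7.37 to 9.24 in DN-Dmp53 flies and at 7.53 to 9.07 in their controls over both ages. All other groups lay between 3.66 and 7.51. The difference between the lines was not tested. At day 40 limma called 0 of 32 members for DN-Dmp53, against 0.0104% of all tested genes, with 3 at an unadjusted p under 0.05 and 1 by the methods' t-test before adjustment, and the count without the arrays with male transcripts was also 0.

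Ageing was read as day 40 minus day 10 in 7 conditions that share no arrays. Obp18a and Obp56a were called higher in 6 of the 7 conditions each, Obp57c in 5, and Obp56d, Obp57b and Obp99c in 4, and none of these 6 genes was called lower in any. Of the antennal members, Obp69a was called higher in DR Canton-S flies alone (1.16 ± 0.14; adjusted p = 0.0145), and Obp28a, Obp83b, Obp19a and Obp84a were not called higher in any condition.

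In yw/w1118 controls 11 of 33 tested members rose with age and 0 fell, against 15.2% and 17.5% of all tested genes. In Canton-S controls 5 of 31 rose and 0 fell (against 7.44% and 2.97%), and in DN-Dmp53 controls 6 of 31 rose and 2 fell (against 11.6% and 10.7%). Under DR, 10 of 32 rose and 0 fell in Canton-S (against 6.08% and 4.55%), whereas 2 of 33 rose and 3 fell in yw/w1118 (against 4.13% and 4.71%). In dSir2 flies 8 of 30 rose and 1 fell (against 9.84% and 7.67%), and in DN-Dmp53 flies 6 of 32 rose and 3 fell (against 7.72% and 3.72%).

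Obp56a was at 10.57, 9.86 and 10.18 in Canton-S controls at day 40 against 7.54, 7.49 and 7.77 at day 10 (2.6 ± 0.21; adjusted p = 0.00707). In yw/w1118 controls it was at 10.27, 10.69 and 10.03 at day 40 against 8.84, 9.16 and 8.66 at day 10. In DN-Dmp53 controls it was at 9.89, 9.33 and 9.46 at day 40 against 7.93, 7.7 and 7.44 at day 10. No day 40 array overlapped a day 10 array in these groups. The ages were so separated for 42.4%, 55% and 46.7% of all probesets tested in Canton-S, yw/w1118 and DN-Dmp53 controls. The increase was 1.25 in dSir2 flies, 2.34 in DN-Dmp53 flies and 0.71 in DR yw/w1118 flies, and it was not called in DR Canton-S flies, where day 10 replicate 3, an array with male transcripts, was at 10.34 against 8.15 and 7.9 on the others.

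Obp18a was at 10.49, 10.51 and 10.48 in yw/w1118 controls at day 40 against 9.11, 9.08 and 9.04 at day 10, an increase of 1.42 ± 0.02 (adjusted p = 0.000111). It was at 10.81, 10.86 and 10.89 in DN-Dmp53 controls at day 40 against 9.43, 9.49 and 9.44 at day 10 (1.4 ± 0.03; adjusted p = 0.000336). The replicates of each group lay close together and far from the other age. In the other conditions its increases were 1.21 in dSir2 flies, 1.15 in Canton-S controls, 0.87 in DR Canton-S flies and 0.63 in DN-Dmp53 flies, and in DR yw/w1118 flies it was not called.

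Obp57a, Obp57b and Obp57c all rose with age in yw/w1118 controls, DN-Dmp53 controls and dSir2 flies. None of them was called in DR yw/w1118 flies, and none in Canton-S controls either. In DR Canton-S flies only Obp57c was called (1.04 ± 0.17; adjusted p = 0.0286). In DN-Dmp53 flies Obp57b and Obp57c rose and Obp57a was not called (adjusted p = 0.0869). Obp57c was at 11.01, 11.02 and 10.82 in yw/w1118 controls at day 40 against 10.15, 9.93 and 9.94 at day 10, and at 10.98, 10.86 and 10.74 in DR yw/w1118 flies at day 40 against 10.93, 11.15 and 11.08 at day 10. Obp57b was at 9.03, 8.89 and 8.78 in the controls at day 40 against 7.65, 7.69 and 7.83 at day 10, and at 9.05, 8.86 and 9.14 in DR flies at day 40 against 8.75, 8.92 and 8.86 at day 10. The control groups were separated by age, while those on DR overlapped.

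The difference of the DR change between ages was tested in each background. In yw/w1118 it was below 0 with a call for 5 of 37 members (13.5%, against 3.05% of all tested genes) and above 0 for none (against 2.1%). Obp57c, Obp57a and Obp57b had differences of -1.14 ± 0.13, -1.07 ± 0.10 and -1.0 ± 0.13 (adjusted p = 0.00773, 0.00434 and 0.0108), and these 3 were called with each of the 12 arrays left out in turn. Obp18a and Obp56d were not: the count was 3 without control day 10 replicate 2 or 3, any DR day 10 replicate, control day 40 replicate 1 or 2, or DR day 40 replicate 2.

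In Canton-S 2 of 34 members had a difference above 0 (5.88%, against 3.29% of all tested genes) and 1 below 0 (2.94%, against 5.32%). Obp83cd had 1.78 ± 0.34 (adjusted p = 0.0157) and was called with each single array left out. Obp99a had 1.46 ± 0.32 (adjusted p = 0.025) and Obp56d had -1.27 ± 0.33 (adjusted p = 0.0473). The count was 1 without DR day 10 replicate 1 or 3 or control day 40 replicate 3. Without the arrays with male transcripts the differences were 1.61 for Obp83cd, 1.2 for Obp99a and -1.46 for Obp56d, and none of these was called (adjusted p = 0.141, 0.22 and 0.0834). The count of 3 in that fit comes from other members. For DN-Dmp53 1 of 33 members was above 0 (Obp19c, against 1.14% of all tested genes) and 1 below 0 (Obp18a, -0.77 ± 0.08, adjusted p = 0.00221, against 0.772%). Obp18a was called with each of the 12 arrays left out in turn, and Obp19c in only 2 of those fits. The count was 1 without replicate 1 or 2 of either group at day 10, control day 40 replicate 1 or 2, DN-Dmp53 day 40 replicate 1 or 3, or the arrays with male transcripts.

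Obp56d was at 14.41, 13.72 and 13.93 in Canton-S controls at day 40 against 12.41, 11.68 and 12.1 at day 10 (1.95 ± 0.27; adjusted p = 0.0167). Obp99c was at 14.03, 14.25 and 14.27 in yw/w1118 controls at day 40 against 13, 12.92 and 12.77 at day 10 (1.29 ± 0.09; adjusted p = 0.00101). The ages were separated for both. Obp99b rose with age in yw/w1118 controls, at 6.28, 6.9 and 7.51 against 4.42, 4.36 and 5.02 at day 10 (2.3 ± 0.39; adjusted p = 0.009), and in dSir2 flies by 2.55 ± 0.52 (adjusted p = 0.0284), 2 of whose day 40 arrays carried male transcripts.

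Obp19b went the other way in the yw/w1118 background. It was at 5.33, 5.35 and 5.46 in DR yw/w1118 flies at day 40 against 6.37, 6.54 and 6.42 at day 10 (-1.06 ± 0.06; adjusted p = 0.00787). It fell by 1.15 in dSir2 flies and by 1.27 in DN-Dmp53 flies, and was at 5.06, 5.31 and 4.63 in yw/w1118 controls at day 40 against 5.43, 5.56 and 5.24 at day 10, which overlap. In Canton-S controls it rose by 0.70 ± 0.15 (adjusted p = 0.0401), a call that was kept in 0 of 6 fits with an array left out. The fall in DR yw/w1118 flies was kept in 6 of 6 such fits, and those in dSir2 and DN-Dmp53 flies in 1 of 6 each. Obp56g and Obp83g fell with age in DN-Dmp53 controls, Obp44a and Obp69a in DR yw/w1118 flies, and Obp28a and Obp83b in DN-Dmp53 flies.

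**Figure D5:**
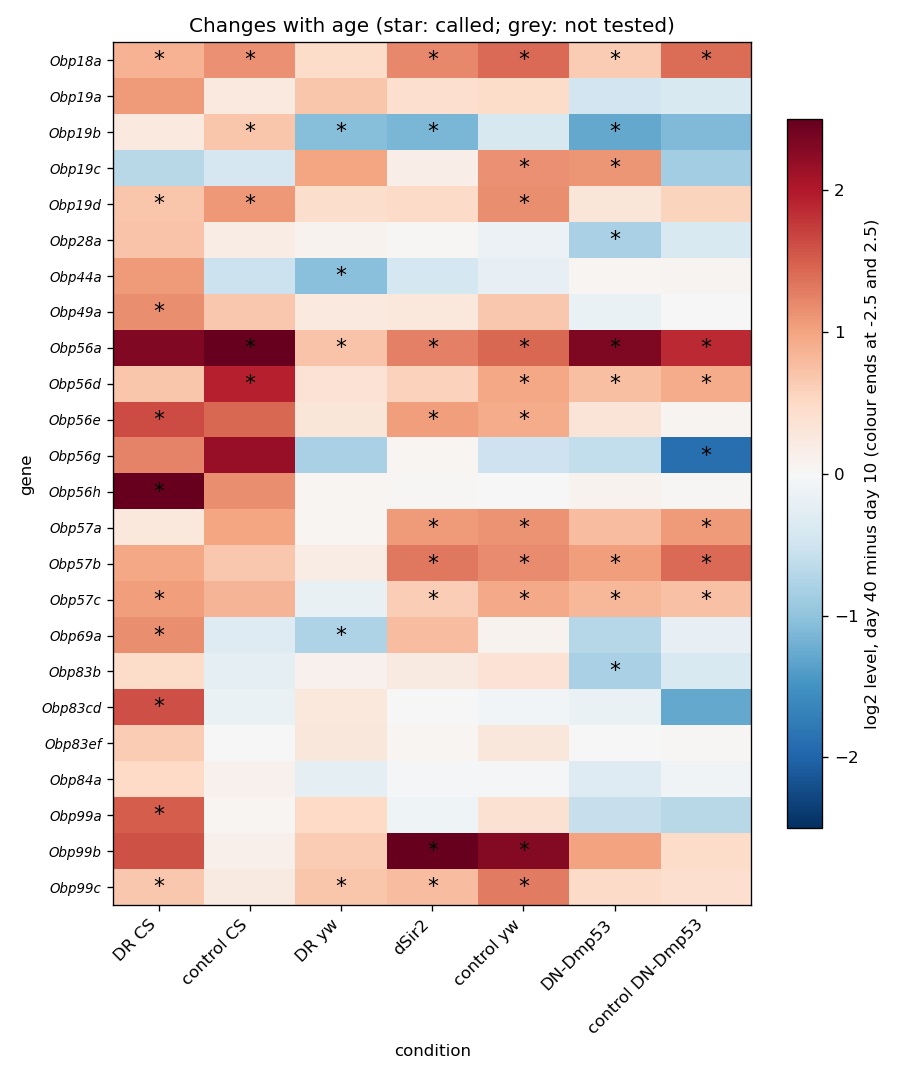
Change with age (log2 level, day 40 minus day 10, n = 3 arrays per age) of 24 Obp genes in 7 conditions; stars mark called changes. Obp18a and Obp56a carry a star in 6 conditions each, and the Obp57 genes carry none in DR yw/w1118 flies and none in Canton-S controls.

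Several ageing counts changed when single arrays were left out. The share of all genes called in those fits was not counted, so these falls are not particular to the Obp genes as far as shown. In Canton-S controls the count of 5 was 2 without day 10 replicate 1 or day 40 replicate 2 or 3 and 1 without day 10 replicate 2 or 3. In DR Canton-S flies the count of 10 was 3, 2 and 5 without day 10 replicate 1, 2 and 3 and 6 without day 40 replicate 3. In DR yw/w1118 flies the count of 5 was 1 without any day 10 replicate or day 40 replicate 2, and 2 without day 40 replicate 3. In dSir2 flies the count of 9 was 4 and 2 without day 10 replicates 1 and 2 and 5 without day 40 replicate 3, and in DN-Dmp53 flies the count of 9 was 2 and 1 without day 10 replicates 1 and 2 and 3 without day 40 replicate 1. The counts in yw/w1118 and DN-Dmp53 controls, which hold none of the 8 arrays with male transcripts, stayed between 9 and 11 and between 6 and 8.

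Without the arrays that carried male transcripts the ageing count was 1 in DR Canton-S flies, and that gene was not among the 10 called with all arrays. The increase of Obp56a was then 2.97 in Canton-S controls. That of Obp18a was 0.93 in dSir2 flies and 0.49, under the fold limit, in DN-Dmp53 flies. Canton-S controls, dSir2 flies and DN-Dmp53 flies then have a single array at day 40, which is assumed to vary like the other group. Other gene lists moved with age as well. Of 12 ovary genes 7 were lower in yw/w1118 controls, and 6 were lower and 1 higher in DN-Dmp53 controls. Spermathecal genes rose in yw/w1118 controls (4 of 4, median 2.47) and DN-Dmp53 controls (2 of 4), and 4 of 8 fat body genes rose in yw/w1118 controls. In DR Canton-S flies 5 of 15 tested other chemosensory genes rose. Their part in the Obp changes was not tested.

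On the control food the backgrounds differed in several Obp genes. The yw/w1118 flies also carried the driver and the dSir2 element, so background and transgenes cannot be told apart. The same holds for the DR change compared between backgrounds. At day 10 Canton-S flies had 2 members higher and 5 lower than yw/w1118 flies among 30 tested (against 4.49% and 5.15% of all tested genes). Obp19b was at 3.56, 3.15 and 3.42 in Canton-S against 5.43, 5.56 and 5.24 in yw/w1118 (-2.03 ± 0.14; adjusted p = 0.00235). Obp56a was at 7.54, 7.49 and 7.77 against 8.84, 9.16 and 8.66 (-1.29 ± 0.16; adjusted p = 0.00843). These 2 genes were separated, as were 41.8% of all probesets tested, and held their calls with each array left out in turn. Obp19a, Obp69a and Obp83cd were also lower in Canton-S, and Obp99b and Obp99c were higher. The count was 2 without yw/w1118 control replicate 2.

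At day 40, 0 members were higher and 4 lower in Canton-S flies among 33 tested (against 5.41% and 6.83% of all tested genes). Obp44a was at 9.27, 8.35 and 8.63 in Canton-S against 10.34, 10.49 and 10.82 in yw/w1118 (-1.8 ± 0.29; adjusted p = 0.0193). Obp57a was at 10.42, 10.02 and 10.02 against 11.28, 11.24 and 11.08 (-1.05 ± 0.14; adjusted p = 0.0129), and Obp19b and Obp19c were the others. Both groups were separated for each, as for 40.9% of all probesets tested. The count was 7 without Canton-S replicate 1, 1 without Canton-S replicate 2 or 3 or yw/w1118 replicate 2, 2 without yw/w1118 replicate 3, and 1, a higher gene, without the arrays with male transcripts.

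By position in the genome, the Obp genes form clusters whose members share a cytological number. In the Obp19 cluster 3 of 4 tested genes rose under DR at day 10 in each background, and Obp19c was the exception. In the Obp56 cluster 2 of 6 tested rose in Canton-S and 4 of 6 in yw/w1118, and in the Obp57 cluster 1 of 3 and 3 of 3. In the Obp83 cluster 1 of 4 rose in each, while in the Obp99 cluster 2 of 3 tested fell in Canton-S. Of all tested genes, 17.9% rose and 17.7% fell in Canton-S, and 18.3% rose in yw/w1118. The clusters hold few genes and were not tested as sets. Measured members of the Obp50 and Obp58 clusters were at or near the floor throughout and none was called in any comparison.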

How the data were processed

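The data were 42 Drosophila 2.0 arrays (Affymetrix) of whole-body RNA from females, 3 for each of 14 groups. The log2 values deposited by the authors were background-corrected with GCRMA and quantile normalized by them, and were used unchanged. Arrays give no read depth, so the number of arrays limits the precision. Array medians were 2.73 to 3.1. The replicates are biological, per the study's methods.

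Probesets naming 1 gene were kept, and the probeset with the highest mean gave a gene's level. Each comparison was fitted on its own groups with limma 3.58.1 (R 4.3.3), leaving out probesets whose group means were all at or under the 25th percentile, and Benjamini-Hochberg adjustment ran over all tested probesets. Calls required a change of more than 1.5-fold with an adjusted p below 0.05. There were 17 comparisons of 2 groups and 6 differences between changes. The methods' t-test is Student's test at p under 0.01. The fit was tested on simulated data. Named with values were called members, up to 10 of the largest changes in a comparison, with every array shown for those called in at least 3 interventions or 4 ageing conditions; further members were chosen after their values were seen. The members and lists were chosen with earlier results of these data known. Figures used matplotlib 3.10.9.

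Replicate numbers paired the DN-Dmp53 arrays, whose same-numbered deviations correlated at 0.61, 0.42 and 0.76 at day 10 and at 0.3, 0.28 and 0.2 at day 40. A fit with the replicate block left their counts at 0.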

Additional observations from a re-analysis of the deposited data

Results flagged for a closer look

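In 13 cases the change of an Obp gene differed between backgrounds or ages by a test of the difference itself (limma, adjusted over all probesets tested). For the DR change at day 10, Canton-S minus yw/w1118, these were Obp99a (-2.15 ± 0.26, adjusted p = 0.00431), Obp57b (-0.76 ± 0.18, adjusted p = 0.0471) and Obp99c (-0.7 ± 0.15, adjusted p = 0.0337).

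For the DR change in yw/w1118, day 40 minus day 10, they were Obp57c (-1.14 ± 0.13, adjusted p = 0.00773), Obp57a (-1.07 ± 0.1, adjusted p = 0.00434), Obp57b (-1.0 ± 0.13, adjusted p = 0.0108), Obp18a (-0.97 ± 0.24, adjusted p = 0.047) and Obp56d (-0.6 ± 0.15, adjusted p = 0.0464). For the DR change in Canton-S, day 40 minus day 10, they were Obp83cd (1.78 ± 0.34, adjusted p = 0.0157), Obp99a (1.46 ± 0.32, adjusted p = 0.025) and Obp56d (-1.27 ± 0.33, adjusted p = 0.0473).

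For the DN-Dmp53 change, day 40 minus day 10, they were Obp19c (1.97 ± 0.37, adjusted p = 0.0383) and Obp18a (-0.77 ± 0.08, adjusted p = 0.00221). Obp19c was at 9.94, 10.5 and 10.18 in DN-Dmp53 flies against 8.45, 8.38 and 9.27 in controls at day 40, and at 8.85, 9.0 and 9.48 in DN-Dmp53 flies against 9.63, 9.58 and 9.5 in controls at day 10.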

How the results depend on the processing

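Of 127 called changes, 58 were still called with each array left out in turn and 40 under every alternative run; over 1671 alternative values, 487 lost the call and 0 changed sign.

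Counts of called Obp genes that moved by over 1.5 times were as follows. With probesets absent up to the 50th percentile, 18 for ageing in DR Canton-S, 8 for ageing in Canton-S controls, 11 and 7 for Canton-S against yw/w1118 at day 10 and day 40, 1 for DN-Dmp53 at day 10, 5 for DR by age in Canton-S and 2 for DR by background at day 40. With all 14 groups in 1 fit, 19 for DR in Canton-S and 4 in yw/w1118 at day 40, 1 and 2 for DN-Dmp53 at day 10 and day 40, 17 and 13 for ageing in DR Canton-S and Canton-S controls, 11 and 13 for the backgrounds at day 10 and day 40, 8 for DR by age in Canton-S and 6 for DR by background at day 40. With arrays centred on their medians, 19 for ageing in DR Canton-S, 11 for the backgrounds at day 10, 1 for DN-Dmp53 at day 10, 1 for DR yw/w1118 at day 40, 5 for DR by age in Canton-S and 3 for DR by background at day 40. With no absent filter, 5 for DR Canton-S at day 40, 3 for dSir2 at day 10, 6, 2, 1 and 5 for ageing in DR Canton-S, Canton-S controls, DR yw/w1118 and dSir2, 2 for the backgrounds at day 40, 3 for DR by age in yw/w1118, 1 for DR by background at day 10 and 1 for DN-Dmp53 by age. The causes were not tested.

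With the replicate block, the counts were 6 for DR Canton-S at day 40, 3 for dSir2 at day 10, 4, 0, 2 and 1 for ageing in DR Canton-S, DR yw/w1118, dSir2 and DN-Dmp53, 2 and 1 for the backgrounds at day 10 and day 40, and 1 for DR by background at day 10. Outside DN-Dmp53 the arrays share only a number. The methods' t-test gave 5 for DR Canton-S and 1 each for DR yw/w1118 and DN-Dmp53 at day 40, and 3 and 5 for ageing in Canton-S controls and dSir2; after adjustment it gave 3 for dSir2 at day 10, 2 for the backgrounds at day 40 and 2, 6, 1 and 5 for ageing in Canton-S controls, DR Canton-S, DR yw/w1118 and dSir2.

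Leaving out the 8 arrays with male transcripts, an alternative chosen after seeing the data, gave 0 for DR Canton-S at day 40, 3, 1, 1 and 1 for ageing in Canton-S controls, DR Canton-S, dSir2 and DN-Dmp53, 1 for the backgrounds at day 40, 1 and 2 for DR by background at day 10 and day 40, and 1 for DN-Dmp53 by age.

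With each array left out in turn, counts ranged from 15 to 17 and 0 to 0 for DR yw/w1118 and from 10 to 13 and 2 to 12 for DR Canton-S (day 10 and day 40 in each), from 1 to 8 and 0 to 0 for dSir2, and from 0 to 1 and 0 to 0 for DN-Dmp53. Ageing counts ranged from 9 to 11 in yw/w1118 controls, 6 to 8 in DN-Dmp53 controls, 1 to 4 in Canton-S controls, 1 to 6 in DR yw/w1118, 2 to 13 in DR Canton-S, 2 to 7 in dSir2 and 1 to 10 in DN-Dmp53. The backgrounds ranged from 2 to 8 and 1 to 7, DR by background from 1 to 4 and 0 to 2, DR by age from 3 to 5 in yw/w1118 and 1 to 3 in Canton-S, dSir2 by age from 0 to 1 and DN-Dmp53 by age from 1 to 2. Values near the floor have no order, and groups of 3 arrays limit every test.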

Other observations

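Probesets shared by 2 genes were left out of the comparisons. Those naming Obp50b with Obp50c did not exceed 2.15 on any array, and 1 of those naming Obp57d with Cpr57A reached 7.46.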
